A study of Mus musculus with 6 samples.

Results

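AP-1 and the early growth response (EGR) factors are the transcription factors that a cell makes first when a growth factor, a hormone or a stress reaches it. The genes described here are 10 of the 56953 genes in the table: Fos, Fosb, Fosl1 and Fosl2 of the FOS family, Jun, Junb and Jund of the JUN family, Egr1 and Egr2, and Atf3. They were chosen by name, with earlier results of these data known, as were the lists of other genes used below. Each of the 10 was matched by Ensembl identifier to a single row. All 10 were among the 14096 genes tested.

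The study sequenced poly-A RNA of mouse embryonic fibroblasts (MEFs), the connective tissue cells that can be cultured from an embryo, in bulk. Labels give 3 of the libraries as WT and 3 as GαqKO. The second group is named for the loss of Gαq, the G protein alpha subunit that carries signals from hormone receptors to phospholipase C, and the study also describes these cells as knocked out for the closely related Gα11. Both groups were kept in ordinary medium with fetal bovine serum, and the labels name no added stimulus. The values are thus levels in cultured cells and not a time course. The study's account of the RNA sequencing does not state the cell density at harvest. Neither the number of clones nor the age of the embryos is given in the sources used here.

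Values are normalized counts, that is reads per gene divided by 1 size factor per library, and changes are fitted log2 fold changes of GαqKO over WT on log2(normalized count + 1) from limma. Adjusted p-values are Benjamini-Hochberg values over the 14096 genes. Reads on genes ran from 9853000 to 12229175 in the 5 libraries where they could be recovered. Gnaq, the gene of Gαq, had 1691 ± 48.5 normalized counts (SD, n = 3) in the libraries labelled WT and 1926 ± 36.0 (SD, n = 3) in those labelled GαqKO, so its transcript was not lower in the second group. Gna11, the gene of Gα11, had 2148 ± 29.0 and 451.6 ± 28.7 (SD, n = 3 each), lower by a log2 fold change of -2.25. Counts per gene do not show whether the Gnaq transcript is intact. The study reported the absence of Gαq in its knockout MEFs by Western blot and immunofluorescence. WT and GαqKO below mean the libraries so labelled, and higher or lower refers to the labels alone. The Y-linked genes Ddx3y, Kdm5d, Eif2s3y and Uty were between 262.3 and 1239 normalized counts in each WT library and listed at 0 in each GαqKO library, so genotype and other differences between the 2 lots of cells cannot be told apart. The 9 fibroblast markers summed to 84376 to 90131 normalized counts in WT and 61317 to 64522 in GαqKO. All 9 differed at an adjusted p under 0.05 (limma), 5 of them lower and 4 higher in GαqKO. Col1a1 went from 16671 ± 1168 to 5774 ± 272.1 (SD, n = 3 each; log2 fold change -1.53), and Fn1 (-0.73), Col1a2 (-0.36), Vim (-0.32) and Col3a1 (-0.18) were lower by less. Pdgfrb (0.23) and S100a4 (1.61) were higher, while Pdgfra was at 17.5 to 21.9 and Thy1 at 0 to 2.1 normalized counts in the WT libraries, against 2274 to 2356 and 59.0 to 76.5. The summed epithelial markers were 255.5 to 284.6 in WT, most of it Cdh1, and 9.1 to 20.8 in GαqKO. The 4 neural markers summed to 829.5 to 949.1 and 581.1 to 601.2, with Tubb3 lower in GαqKO. Endothelial and muscle markers summed to 25.4 or less in every library, and blood cell markers to between 69.5 and 115.0, most of it Cd68. The part of these differences in the results below was not tested.

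AP-1 is a pair of basic leucine zipper proteins, either a JUN protein with a FOS protein or 2 JUN proteins, and it binds a short DNA element found at many genes for growth, matrix breakdown and inflammation. In fibroblasts, serum switches Fos, Jun and Egr1 on within minutes, and the messages are short-lived. For Fos and Egr1 this runs through the serum response factor SRF with its partners and through CREB. EGR1, EGR2 and EGR3 are zinc finger proteins that bind a GC-rich element, and ATF3 is a stress-induced zipper protein that can pair with JUN proteins and often represses. Signals through Gαq are a textbook way to reach these genes, by calcium and protein kinase C.

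For a view of the DNA elements named above, the promoters were searched. The 4 elements searched on both strands, from 400 bases before to 50 bases after the annotated start of each gene's canonical transcript, were the core of the cAMP response element, where CREB and ATF proteins bind (TGACGT), the AP-1 site (TGANTCA), the EGR site (GCGNGGGCG) and the CArG box of SRF. A match is a run of letters and says nothing of binding. Only these patterns in this window were sought, so a missing match does not mean a missing site. Of 21664 protein-coding promoters of that length, 10.3% held the first, 10.8% the second, 6.81% the third and 2.36% the fourth. Among the 10 genes, the cAMP element core was found in 7, the CArG box in 3 (Fos, Fosb and Egr2) and the EGR site in 2 (Fosb and Jund), while no AP-1 site was found in this window. Fosl1, Fosl2 and Junb held no match to any of the 4. Below are the 150 bases before the start of 4 genes on GRCm39, with the start taken from the canonical transcript in GENCODE release 39, shown because Fos is the classic gene of the family, Jund and Atf3 had the largest falls of the 10, and Egr2 holds 2 of the elements close together. In Atf3 and Egr2 this start lies inside the span of the gene given below, and other transcripts of it begin further upstream. Matches are in capitals.
Fos (chr12:85520508-85520657, plus strand): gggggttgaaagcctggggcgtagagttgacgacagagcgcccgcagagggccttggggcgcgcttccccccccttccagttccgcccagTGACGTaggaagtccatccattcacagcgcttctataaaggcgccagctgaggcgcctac
Jund (chr8:71151449-71151598, plus strand): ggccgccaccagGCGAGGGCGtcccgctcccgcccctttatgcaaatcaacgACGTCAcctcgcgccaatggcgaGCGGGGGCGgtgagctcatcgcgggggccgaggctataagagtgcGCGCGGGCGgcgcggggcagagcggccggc
Atf3 (chr1:190915538-190915687, minus strand): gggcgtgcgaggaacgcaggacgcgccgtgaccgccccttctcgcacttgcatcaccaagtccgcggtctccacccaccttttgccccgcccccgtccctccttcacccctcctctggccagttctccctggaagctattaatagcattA
Egr2 (chr10:67373542-67373691, plus strand): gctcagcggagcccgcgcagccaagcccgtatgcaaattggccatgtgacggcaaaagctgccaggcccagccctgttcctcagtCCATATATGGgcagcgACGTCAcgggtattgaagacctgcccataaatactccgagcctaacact
In Fos the cAMP element core starts 60 bases before the start site, and its CArG box lies outside the stretch shown, at 303 bases before it. Jund carries EGR sites at 138, 75 and 30 bases before the start and a cAMP element core at 98, with another pair of overlapping cores at 214 and 212. The match of Atf3 begins on the last base shown and runs across the annotated start. Egr2 holds a CArG box followed by a cAMP element core, with first bases at 65 and 49 before the start.

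The 10 genes did not move together. Jund, Egr1 and Atf3 fell past the thresholds, an adjusted p under 0.05 and a log2 fold change beyond 1 in size, and none of the 10 rose past them. Of all tested genes, 10.5% fell past these thresholds and 10.2% rose. At an adjusted p under 0.05 alone 6 of the 10 were lower (Fos, Fosl2, Junb, Jund, Egr1 and Atf3), against 34.1% of all tested genes, and 2 were higher (Fosl1 and Jun), against 31.8%. Their median log2 fold change was -0.22, beside -0.01 over all genes tested. The values of the groups did not overlap for any of the 10 genes, which was so for 69.6% of the tested genes. In bulk RNA, fewer cells with a transcript and less of it per cell cannot be told apart.

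**Figure D1:**
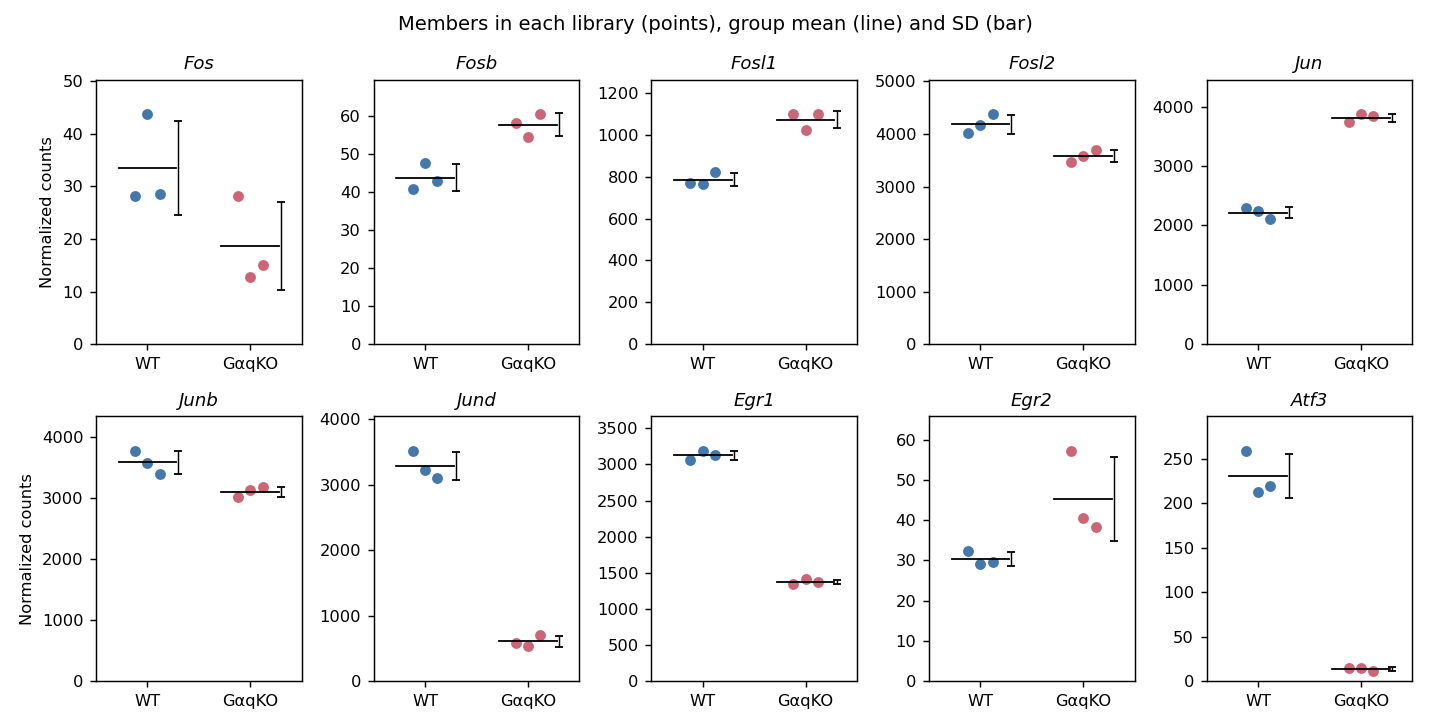
Normalized counts of each of the 10 genes on linear axes from 0, with a point per library, a line at the group mean and a bar of 1 SD (n = 3 per group). The WT and GαqKO points are far apart for Jund, Egr1, Atf3 and Jun, and close for Fos, where the lowest WT library (28.2) and the highest GαqKO library (28.2) nearly meet.

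**Figure D2:**
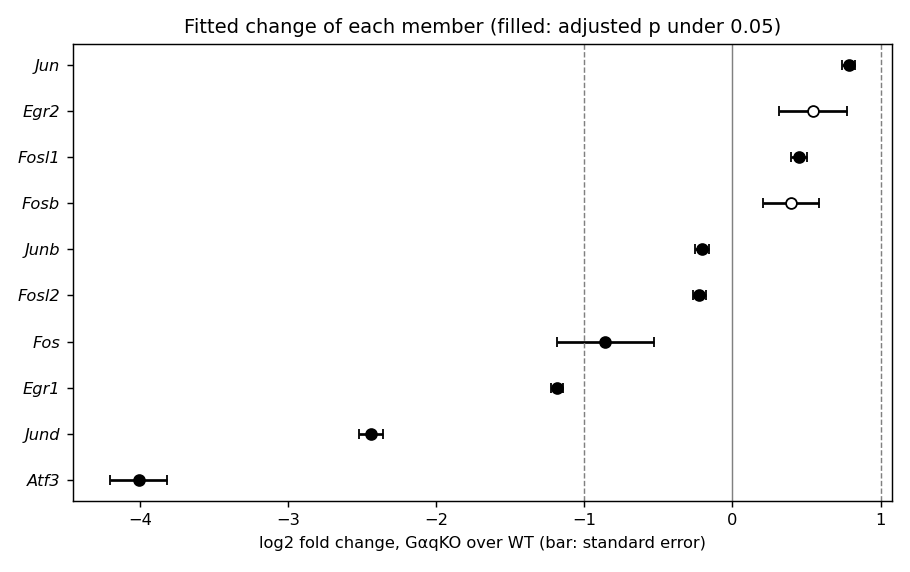
Fitted log2 fold change of GαqKO over WT for each gene, with bars of 1 standard error, dashed lines at -1 and 1, and filled points for an adjusted p under 0.05 in limma. Atf3, Jund and Egr1 lie beyond -1, and no gene lies beyond 1.

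In the JUN family, whose proteins are common to all AP-1 pairs described above, Jun rose and Jund fell. Gene positions here are on GRCm39. Jun (ENSMUSG00000052684.5; chromosome 4, 94937271 to 94940459, minus strand) is the archetype of the family and an activator of the cell cycle in fibroblasts. It had 2290, 2244 and 2109 normalized counts in the 3 WT libraries and 3736, 3870 and 3833 in the 3 GαqKO libraries. All GαqKO values lay above all WT values, and the spread within each group was small beside the gap. The log2 fold change was 0.78 (standard error 0.04, limma adjusted p = 2.61e-09), a 1.72-fold difference of the means, and 13.8% of the tested genes had a higher one.

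Jund (ENSMUSG00000071076.9; chromosome 8, 71151599 to 71153265, plus strand) encodes the JUN protein that quiescent cells keep at a steady level and that slows the growth of fibroblasts. Its values were 3519, 3226 and 3105 in WT and 582.2, 536.5 and 700.9 in GαqKO. The highest GαqKO library lay far below the lowest WT library. The log2 fold change was -2.44 (standard error 0.08, limma adjusted p = 1.34e-11), 5.41-fold lower by the means, and 4.7% of tested genes had a lower one.

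Junb (ENSMUSG00000052837.8; chromosome 8, 85701113 to 85705359, minus strand), a weaker activator that can hold back JUN, fell by a small amount. It had 3779, 3586 and 3405 normalized counts in WT and 3014, 3129 and 3178 in GαqKO, which is a log2 fold change of -0.21 (standard error 0.05, limma adjusted p = 0.0015). The gap between the lowest WT value and the highest GαqKO value was smaller than the range within WT.

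Reads of Jun, Jund, Fosl1 and Junb may be shared with genes on the other strand. The library kit was stranded per the labels, but the strand setting of the counting is not given in the sources used here, and without strand the reads of both partners cannot be told apart. The whole of Jun lies inside the span of the antisense gene Junos, which shares 16.6% of the exon bases of Jun. Junos itself went up, from 63.2 ± 4.5 in WT to 323.4 ± 8.0 in GαqKO (SD, n = 3 each; log2 fold change 2.34, limma adjusted p = 6.95e-10). Gm11175 covers 52.6% of the exon bases of Jund on the other strand and was listed at 0 in all 6 libraries. All 877 of its exon bases are shared with Jund, so without strand this 0 does not show its level. Ccdc85b shares 57.2% of the exon bases of Fosl1, and it stood at 1753 ± 101.8 and 1657 ± 34.0 (SD, n = 3 each). Its difference of -0.08 on the log2 scale did not pass the test (limma adjusted p = 0.18). Prdx2 shares 7.27% of the exon bases of Junb, and its log2 fold change of -0.11 did not pass either (limma adjusted p = 0.40).

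The FOS family, whose proteins pair with a JUN protein in AP-1, was carried by Fosl1 and Fosl2, with Fos and Fosb near the bottom of the range. Fos (ENSMUSG00000021250.14; chromosome 12, 85520658 to 85524047, plus strand), the gene induced most sharply by serum, had 28.2, 43.7 and 28.5 normalized counts in WT and 28.2, 12.7 and 15.1 in GαqKO. A single GαqKO library stood at the level of the 2 lower WT libraries. The log2 fold change was -0.86 (standard error 0.33, limma adjusted p = 0.0333), on few reads. The call rests on single libraries: the adjusted p was 0.14 without WT replicate 2, 0.12 without GαqKO replicate 2 and 0.0993 without GαqKO replicate 3 (limma).

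Fosb (ENSMUSG00000003545.4; chromosome 7, 19036621 to 19043976, minus strand), a relative of Fos with the same rapid induction, was at a similar level. Its values were 40.7, 47.6 and 42.7 in WT and 58.2, 54.3 and 60.4 in GαqKO, which is a log2 fold change of 0.39 (standard error 0.19) that did not pass (limma adjusted p = 0.0801). The groups did not overlap, but the counts are low. With no trend in the prior spread, limma gave an adjusted p of 0.0074 for it.

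Fosl1 (ENSMUSG00000024912.7; chromosome 19, 5497575 to 5505974, plus strand) encodes FRA-1, a longer-lived partner of JUN found in migrating and transformed cells. It had 769.6, 765.5 and 821.4 normalized counts in WT and 1098, 1023 and 1097 in GαqKO. Every GαqKO library was above every WT library, with a log2 fold change of 0.45 (standard error 0.06, limma adjusted p = 8.16e-06). The overlap with Ccdc85b given above limits this value.

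Fosl2 (ENSMUSG00000029135.11; chromosome 5, 32292707 to 32315186, plus strand) encodes FRA-2, the related protein linked to matrix genes. Its values were 4014, 4172 and 4376 in WT and 3474, 3580 and 3692 in GαqKO, which is a log2 fold change of -0.22 (standard error 0.04, limma adjusted p = 5.81e-04). Fosl2 thus fell a little while Fosl1 rose, and no overlap between groups was seen for either.

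Egr1 and Atf3 were the other genes past the thresholds. Egr1 (ENSMUSG00000038418.8; chromosome 18, 34992876 to 34998049, plus strand), the zinc finger gene most used as a readout of ERK signalling, had 3067, 3187 and 3126 normalized counts in WT and 1349, 1406 and 1365 in GαqKO. Its libraries were the most even of the 10 genes in WT, with an SD of 1.93% of the mean, and 2.13% in GαqKO. The log2 fold change was -1.19 (standard error 0.04, limma adjusted p = 2.68e-11), 2.28-fold lower by the means.

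Atf3 (ENSMUSG00000026628.14; chromosome 1, 190902493 to 190950241, minus strand) had the largest change of the 10. It had 259.0, 212.7 and 219.9 normalized counts in WT and 14.1, 15.0 and 11.1 in GαqKO, which is a log2 fold change of -4.01 (standard error 0.19, limma adjusted p = 4.54e-10). By the means it was 17.2-fold lower, and 2.43% of tested genes had a lower log2 fold change. The GαqKO values were above the floor of 3 counts in each library, so the ratio is a measured one.

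Egr2 (ENSMUSG00000037868.16; chromosome 10, 67371305 to 67378018, plus strand), the family member known for its role in myelination and in immune tolerance, was at low counts. It had 32.4, 29.1 and 29.5 in WT and 57.3, 40.5 and 38.3 in GαqKO. A single GαqKO library, replicate 1, stood well above the other two, and the log2 fold change of 0.54 (standard error 0.23) missed the threshold at a limma adjusted p of 0.0538. The adjusted p was 0.0464 without GαqKO replicate 3 and 0.22 without GαqKO replicate 1 (limma). On the 5 libraries with recovered reads, which also leave out GαqKO replicate 3, edgeR gave an adjusted p of 0.0313 and DESeq2 gave 0.102.

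For a comparison of levels between genes, counts were divided by the length of each gene's exons. The full length was used, with the shared exon bases of Jun, Jund, Fosl1 and Junb given above. A loss of reads on those bases would lower the levels of these genes, and this was not tested. In WT the order per kb of exon was Jund, Junb, Egr1, Jun, Fosl2, Fosl1, Atf3, Fos, Egr2 and Fosb. Neighbours in this order had ranges apart, except Egr1 with Jun and Fosl2 with Fosl1. In GαqKO it was Junb, Jun, Fosl1, Jund, Fosl2, Egr1, Egr2, Fosb, Fos and Atf3, and the ranges overlapped between Jund and Fosl2, between Fosb and Fos, and between Fos and Atf3. Jund went from first place, at 1970 ± 127.5 normalized counts per kb (SD, n = 3), to the fourth, at 363.8 ± 50.9 (SD, n = 3). Jun went from the fourth, at 694.4 ± 29.5, to the second, at 1196 ± 21.6 (SD, n = 3 each). Atf3 dropped from 94.4 ± 10.2 to 5.5 ± 0.8 per kb (SD, n = 3 each), which put it last.

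**Figure D3:**
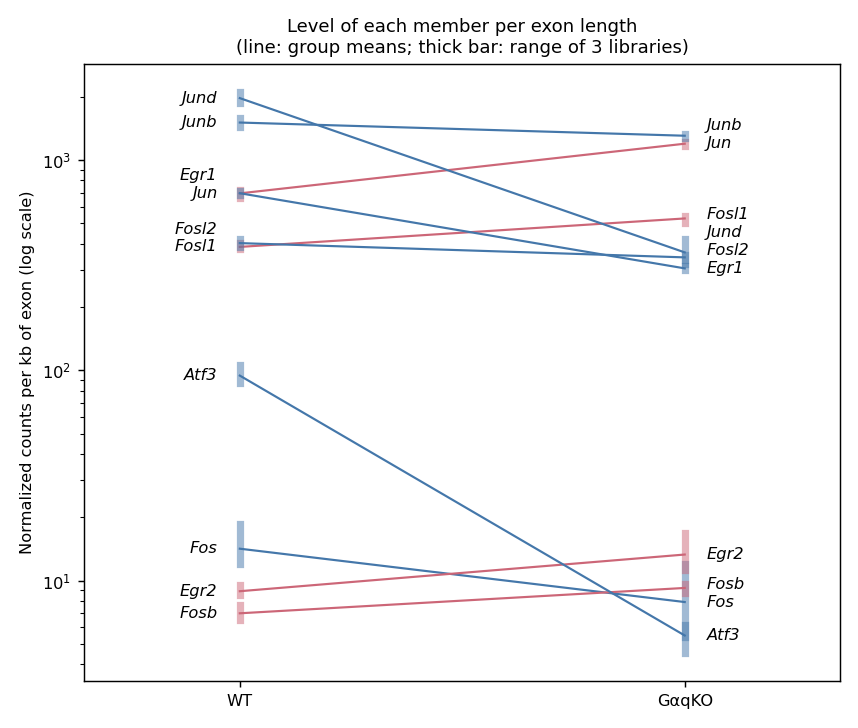
Level of each gene as normalized counts per kb of exon on a log axis, with lines joining the group means and thick bars for the range of the 3 libraries (blue, lower mean in GαqKO; red, higher). The lines of Jund and Jun cross, and that of Atf3 falls from mid-range to the bottom.

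The make-up of each family is free of the scaling of a library, since each share is taken within it. The limit on shared exon bases given above holds for the shares too. Within the JUN family, Jund made up 47.2% ± 0.56 of the counts per kb in WT and 12.7% ± 1.5 in GαqKO, and Jun 16.7% ± 0.36 and 41.8% ± 1.0 (SD, n = 3 each). Junb held 36.1% ± 0.20 and 45.6% ± 0.50 (SD, n = 3 each), a higher share of a smaller sum. The ratio of Jun to Jund per kb was 0.34, 0.36 and 0.35 in WT and 3.35, 3.77 and 2.86 in GαqKO, so the more abundant of the pair was exchanged in every library. The summed JUN level per kb was 4172 ± 232.1 in WT and 2864 ± 86.1 in GαqKO (SD, n = 3 each).

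Within the FOS family, Fosl1 made up 47.7% ± 0.77 in WT and 59.3% ± 0.95 in GαqKO, and Fosl2 49.7% ± 0.34 and 38.8% ± 1.3 (SD, n = 3 each). Fos and Fosb were 1.8% ± 0.48 and 0.86% ± 0.07 of the family in WT, and 0.89% ± 0.39 and 1.04% ± 0.03 in GαqKO (SD, n = 3 each). The sum was 810.3 ± 30.9 and 889.2 ± 25.0 per kb. For each of the 7 shares and for both sums the groups did not overlap, and the exact permutation test, two-sided, gave p = 0.1, the smallest that 3 against 3 allows (0.1 also after Benjamini-Hochberg adjustment over the 7 shares).

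**Figure D4:**
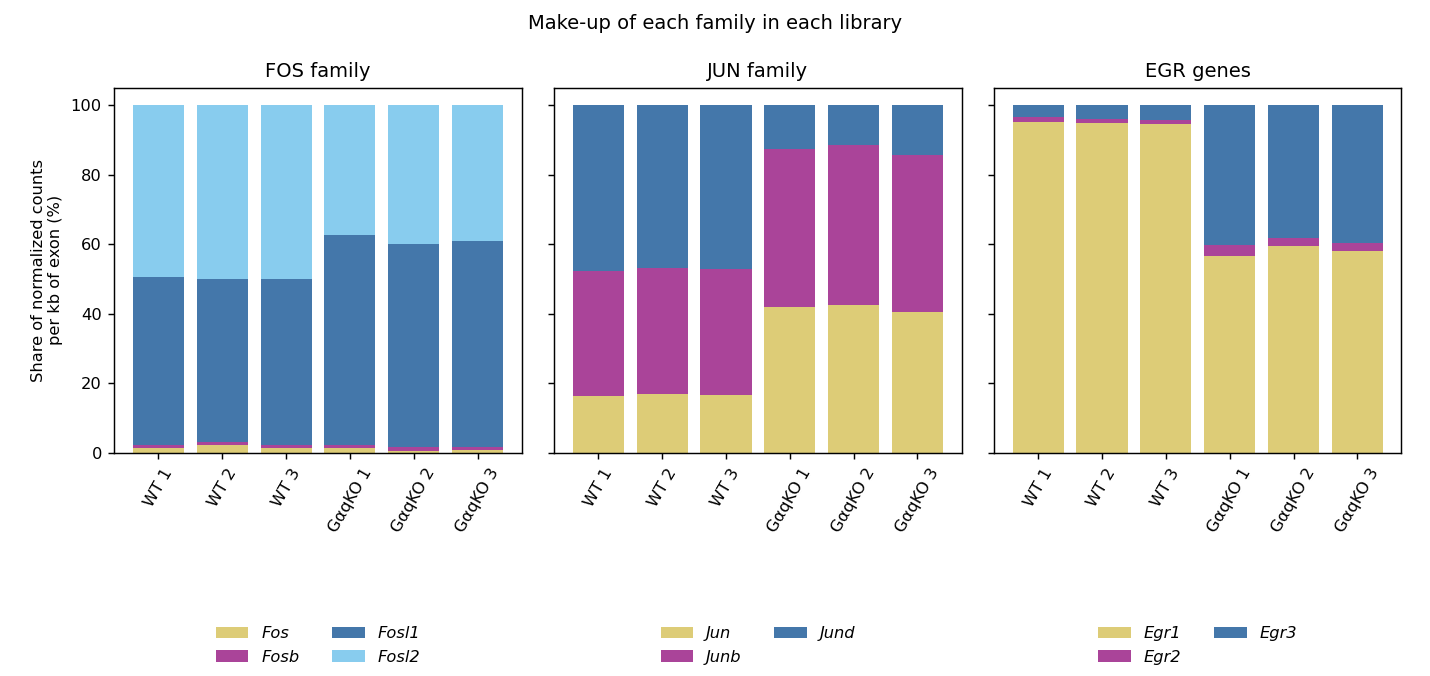
Share of each gene in the summed normalized counts per kb of exon of its family, in each library (stacked bars from 0 to 100%). Jund shrinks from about 47.2% to 12.7% of the JUN family on average, Fosl1 grows from 47.7% to 59.3% of the FOS family, and Egr3 from 3.8% to 39.3% of the EGR genes.

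Egr3 rose while Egr1 fell. Egr3, an EGR gene that is not among the 10, is induced by the same signals and can be a target of EGR1 itself. It had 118.0, 136.0 and 142.5 normalized counts in WT and 997.2, 942.3 and 976.8 in GαqKO. All GαqKO values were far above the WT values, with a log2 fold change of 2.87 (standard error 0.09, limma adjusted p = 3.76e-12). Per kb of exon, Egr3 was at 28.1 ± 2.7 in WT and 206.5 ± 5.9 in GαqKO, against 695.4 ± 13.4 and 305.4 ± 6.5 for Egr1 (SD, n = 3 each). The ratio of Egr1 to Egr3 per kb went from 24.9 ± 2.1 to 1.5 ± 0.07 (SD, n = 3 each). The sum of Egr1, Egr2 and Egr3 was 732.4 ± 14.9 and 525.2 ± 3.3 per kb (SD, n = 3 each). Nab1 and Nab2, corepressors that bind EGR proteins, had log2 fold changes of -0.17 and 0.22, both with an adjusted p under 0.05 (limma), and Egr4 was listed at 0.

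The genes next to the 10 were compared as well. The nearest tested protein-coding genes on either side of Jund, Egr1 and Atf3, 6 in all, had log2 fold changes from -0.06 to 0.59. Around all 10 genes, 20 such neighbours were compared, of which 1 was higher past the thresholds and 0 lower, beside 10.2% and 10.5% of all tested genes.

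Of the 10 genes for factors at serum and cAMP response elements, which act on promoters such as those above, none passed the thresholds. At an adjusted p under 0.05 (limma), 1 was higher and 3 were lower, beside 31.8% and 34.1% of all tested genes, and the median log2 fold change was -0.03. Srf, the factor at CArG boxes, was at 1895 ± 25.7 in WT and 1932 ± 5.0 in GαqKO (SD, n = 3 each), a difference of 0.03 on the log2 scale (limma adjusted p = 0.57). The log2 fold change of Mrtfa, a partner of SRF, was 0.34, and that of Creb1 was -0.22.

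Among 20 tested genes of the MAP kinase routes upstream, 1 fell past the thresholds and none rose, beside 10.5% and 10.2% of all tested genes. At an adjusted p under 0.05, 10 were lower and 5 higher, beside 34.1% and 31.8%, and the median was -0.09. Map2k4, the kinase that activates JNK and p38 and so the phosphorylation of JUN, had 1422, 1438 and 1429 normalized counts in WT and 573.7, 583.9 and 542.8 in GαqKO, which is a log2 fold change of -1.33 (standard error 0.05, limma adjusted p = 6.27e-11). Its groups were far apart, with little spread in either. Mapk3, which encodes ERK1, had a log2 fold change of -0.93, and Braf, whose exons lie partly within the span of Ndufb2 on the other strand, one of -0.84. Of the higher genes, Rps6ka5 and Rps6ka4, which encode the nuclear kinases MSK1 and MSK2, had log2 fold changes of 0.64 and 0.52. Each of these 4 had an adjusted p under 0.05 (limma).

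Of 12 other zipper genes whose proteins can pair with FOS or JUN proteins, 10 were tested, with 1 higher past the thresholds, beside 10.2% of all tested genes, and a median of 0.03. At an adjusted p under 0.05 there were 4 higher and 3 lower genes, beside 31.8% and 34.1%, shares not far from theirs. Maf, the 1 past the thresholds, went from 380.1 ± 14.6 in WT to 1012 ± 39.8 in GαqKO (SD, n = 3 each; log2 fold change 1.41, limma adjusted p = 1.82e-10). Maff followed at 0.83. Jdp2, a repressor of AP-1 that binds JUN proteins, was lower with a log2 fold change of -0.90, and so were Mafk (-0.60) and Atf2 (-0.47), each with an adjusted p under 0.05 (limma).

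Other immediate early genes were mixed, with the larger changes downward. Of the 29 tested, 8 fell past the thresholds and none rose, beside 10.5% and 10.2% of all tested genes. By the adjusted p alone, under 0.05, 14 were lower and 7 higher, beside 34.1% and 31.8%, and the median log2 fold change was -0.23. Arc, a gene of synaptic plasticity that serum also induces, had 59.5, 43.7 and 44.8 normalized counts in WT and 0.94, 1.2 and 3.0 in GαqKO, values at or about the floor of 3 counts. Ccn2, the matrix growth factor CTGF, had 5399, 4955 and 4416 in WT and 629.1, 700.7 and 691.8 in GαqKO, which is a log2 fold change of -2.86 (standard error 0.07, limma adjusted p = 4.98e-13). Btg2, an antiproliferative gene, had 341.4, 357.5 and 334.9 in WT and 59.2, 47.4 and 60.4 in GαqKO, which is a log2 fold change of -2.62 (standard error 0.13, limma adjusted p = 6.43e-10). In all 3 the groups were far apart. The other 5 past the thresholds were Plk2 (-1.84), Ccn1 (-1.53), Gadd45b (-1.27), Cited2 (-1.23) and Klf6 (-1.18). On the other side, Ier3 had a log2 fold change of 0.87 and Zfp36l1 of 0.57, while Ier2 (-0.09), Nr4a1 (-0.02) and Dusp1 (-0.23) did not pass the test.

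Of 15 genes listed as AP-1 targets, 10 were tested. Of these, 5 rose and 1 fell past the thresholds, beside 10.2% and 10.5% of all tested genes. The list does not separate genes that AP-1 raises from genes that it lowers. There were 8 higher genes and 2 lower ones at an adjusted p under 0.05, beside 31.8% and 34.1%, and the median log2 fold change was 0.98. Dcn, a matrix proteoglycan, had 35.5, 30.1 and 30.5 normalized counts in WT and 1710, 1674 and 1604 in GαqKO, which is a log2 fold change of 5.66 (standard error 0.10, limma adjusted p = 2.14e-14). Mmp9, a gelatinase, rose from 5.2, 12.6 and 18.3 to 245.1, 245.1 and 214.5, a log2 fold change of 4.32 on low WT counts (standard error 0.32, limma adjusted p = 4.83e-08). Spp1, which encodes osteopontin, rose from 2212 ± 185.6 to 32807 ± 242.9 (SD, n = 3 each; log2 fold change 3.89, limma adjusted p = 3.28e-15). These rises stand far outside the spread of either group. Mmp13, a collagenase and also a classic AP-1 gene, went the other way, with 61.6, 35.9 and 31.6 in WT and 0, 2.3 and 5.0 in GαqKO. Timp1 and Ccl2 were listed at 0 in all libraries. The exons of Timp1 lie within the span of Syn1 on the other strand, so its 0 may not show its level. Whether reads were lost there was not tested.

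Of 9 EGR1 targets, 8 were tested, of which 2 fell and 0 rose past the thresholds, beside 10.5% and 10.2% of all tested genes. At an adjusted p under 0.05 there were 3 lower genes and 3 higher ones, near the 34.1% and 31.8% of all tested genes, and the median log2 fold change was -0.07. Pdgfb, the gene of a PDGF chain, had 556.6, 564.4 and 479.4 normalized counts in WT and 3.8, 8.1 and 8.1 in GαqKO, which is a log2 fold change of -6.19 (standard error 0.24, limma adjusted p = 5.74e-11). Thbs1, which encodes the matrix protein thrombospondin, fell from 8639 ± 345.6 to 1244 ± 44.9 (SD, n = 3 each; log2 fold change -2.79, limma adjusted p = 1.54e-14). Ptpn1, which encodes a tyrosine phosphatase, had a log2 fold change of 0.82, and Pdgfa (0.20) and Nab2, which stands also among the EGR corepressors, were higher too, while Vegfa and F3 did not pass.

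**Figure D5:**
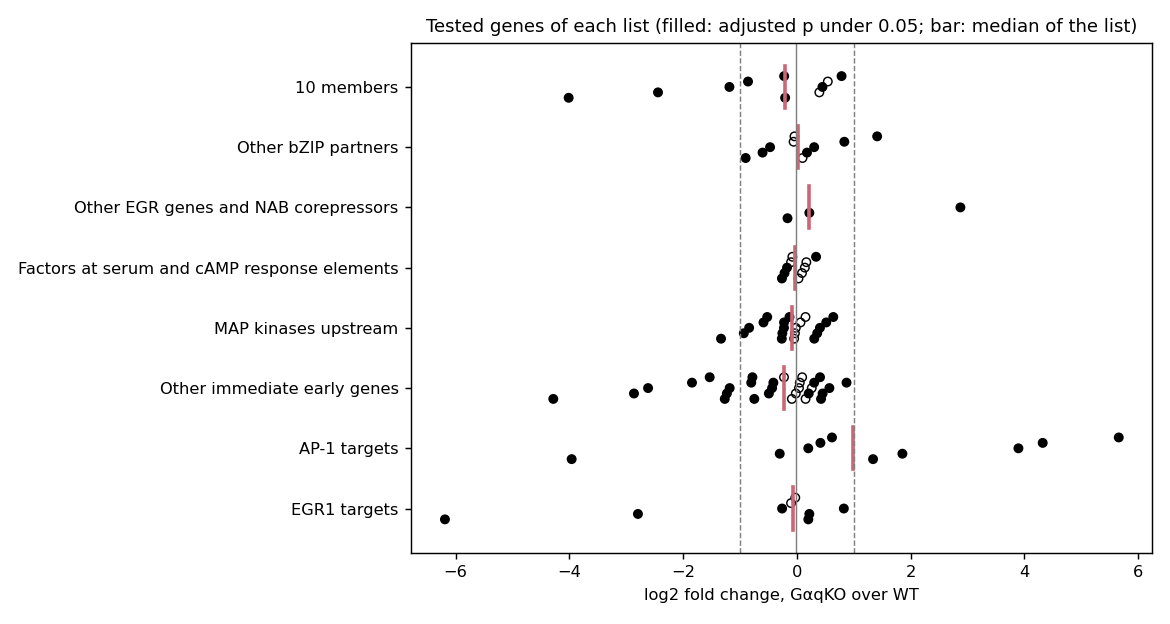
Log2 fold change of each tested gene, by list, with filled points for an adjusted p under 0.05 in limma, a red bar at the median of the list, dashed lines at -1 and 1 and a grey line at the median of all genes tested (-0.01). The points of the 10 genes and of the other immediate early genes reach further to the left than to the right, those of the AP-1 targets further to the right, and factors at serum and cAMP elements stay within -1 and 1.

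The genes nearest in pattern to 4 of the 10 were sought by Euclidean distance of log2 values, each minus its mean, over the 6 libraries. The search covered 9326 genes whose mean over all libraries reached 100 normalized counts. It left out the 10 genes themselves, genes without a symbol and genes named only by a Gm number or a Rik name. For Jun they were Gfm1 (distance 0.05) and Papss1 (0.06), and for Fosl1 Ssx2ip and Tfap4 (0.05 each). Nearest to Egr1 were Arl5b (0.07) and Samd14 (0.09). Nearest to Fos were Txlng at 0.55 and Zmym4 at 0.61. The libraries of Fos varied most among themselves, with an SD of 26.5% of the mean in WT and 44.6% in GαqKO. With 2 groups of 3, such a distance mainly reads the size of the difference between the groups.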

How the data were processed

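The authors aligned paired-end reads of 6 libraries, described as 3 biological replicates per genotype, to GRCm39 with Rbowtie2, made gene counts with featureCounts (GENCODE release 32) and applied DESeq2. Versions and the strand setting are not given in the sources used here. The values that the authors deposited are a signal: counts scaled by 1 size factor per library. GENCODE release 39 matched 56310 of the 56953 identifiers.

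A gene was tested if 3 or more libraries held 10 or more normalized counts. The test was limma 3.58.1 (R 4.3.3) on log2(normalized count + 1), with group as the only term and a mean trend in its prior. Whole reads were recovered in 5 libraries (100% of nonzero values within 0.1 of a whole number) and given to edgeR 4.0.16 and DESeq2 1.42.0. GαqKO replicate 3 was left out there, because its step lies too near 1. The floor of 3 counts covers counting error only. Other alternatives were the scaling, filter, pseudocount (0.5 and 5), prior, replicate block and each library left out. Python 3.11.15 read the promoters. The scripts were tested on simulated data.

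The 10 genes and the lists were chosen with earlier results of these data known. Named are the 10, Gnaq, Gna11, up to 3 rises and 3 falls per list (past the thresholds, mean of 20 or more) and the genes nearest in pattern to Fos, Fosl1, Jun and Egr1. Other genes were named after their values were seen.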

Additional observations from a re-analysis of the deposited data

How the results depend on the processing

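The log2 fold changes of the 10 genes kept their direction under all 16 alternatives, and the calls of Fosl1, Fosl2, Jun, Junb, Jund, Egr1 and Atf3 at an adjusted p under 0.05 held in each. Fos (-0.86) missed the threshold without a filter (adjusted p = 0.0648), when the trend in the prior spread was dropped (0.068) and with a replicate block (0.0536), all in limma with the same log2 fold change of -0.86. It also missed it in edgeR (-0.66, adjusted p = 0.13) and DESeq2 (-0.68, adjusted p = 0.23) on the recovered reads, and ran from -1.18 to -0.64 with each library left out. Egr2 passed with upper-quartile scaling (0.56), at least 10 normalized counts in every library (0.54), a pseudocount of 5 (0.49), no trend in the prior spread (0.54) and edgeR (0.71), and ran from 0.37 to 0.65 with each library left out. Fosb passed with no trend (0.39), so that 4 of the 10 were then higher in place of 2. The cause of these changes was not tested.

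Genes past the thresholds were 831 higher and 765 lower, in place of 1432 and 1486, when every library had to reach 10 normalized counts, which removes genes seen in 1 group only. Shares may depend on how reads on shared exon bases were counted, which was not tested. They also depend on length. With counts not divided by it, the differences of GαqKO minus WT in percentage points were -0.27 for Fos, 0.35 for Fosb, 7.12 for Fosl1, -7.20 for Fosl2, 26.3 for Jun, 1.78 for Junb and -28.1 for Jund. With the longest transcript as the length, 3 differences moved, to 0.27 for Fosb, 21.6 for Jun and -31.3 for Jund. Same-numbered libraries showed no shared deviation, with correlations of -0.08, -0.02 and -0.06 over 10033 genes. These values cannot show whether such libraries were prepared together. The replicate block changed the call of no gene of the 10 but Fos.

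Depth limits Fos, Fosb, Egr2 and, in GαqKO, Atf3, whose counts are the lowest of the 10.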
